A study of Rattus norvegicus with 32 samples.

Results

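Immediate early genes were described in the liver of rats that breathed ozone or filtered air. The set held 8 genes (Fos, Jun, Junb, Egr1, Ier2, Ier3, Zfp36 and Myc), and a gene was taken up where the array's platform annotation listed a probe set for it alone. A single-gene probe set was found for 7 of the 8, among 13437 genes with such a probe set in the whole table. The annotation used here lists none for Fos, which was not analysed here. All 7 genes passed the filter on dim probe sets that left 11625 genes for testing. Jun had 3 probe sets, of which the brightest stood for the gene, and the other members had 1 each.

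Immediate early genes are transcribed within minutes of a stimulus, without prior protein synthesis, and their transcripts decay quickly. Many encode transcription factors: Jun and Junb are subunits of AP-1, Egr1 is a zinc finger factor induced through ERK signalling and serum response factor, and Myc drives genes of growth and ribosome production. Zfp36 (tristetraprolin) works in the other direction and speeds the decay of transcripts with AU-rich elements. In the liver such genes are known for their induction after partial hepatectomy and in the acute phase response.

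The rats were male Wistar Kyoto (WKY) animals, 10 weeks old and 250 to 300 g in weight, with no genetic change named in the labels. They breathed ozone at 1 ppm or filtered air for 6 h a day, on 1 day or on 2 days in a row. Total liver RNA was hybridised to 32 single-colour Affymetrix rat arrays. Livers taken as exposure ended on day 1 gave 6 ozone and 6 air arrays, those taken as exposure ended on day 2 gave 5 and 5, and those taken 18 h after the day 2 exposure gave 5 and 5. The labels do not state that each array held a different animal, so the p-values measure the spread between these samples, which may be technical. Whole liver was measured, so a change in the number of cells of a type and a change in RNA per cell cannot be told apart.

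Array medians lay between 147 and 161 units, and array medians of the probes for nonspecific binding lay between 54.3 and 92.0 units, so differences of dim probe sets are understated. Of the 32 arrays, 7 correlated better with the mean of another group than with their own group, by a correlation across genes after the mean of all arrays was taken off each gene. The only ozone array among them was day 2 ozone replicate 5, with r = -0.25 to its own group and r = 0.66 to the ozone group at 18 h. Day 2 air replicate 5, 18 h air replicate 1 and 18 h air replicate 5 had r = -0.52, r = 0.26 and r = 0.10 to their own groups. Day 2 air replicate 5 was nearest to day 2 ozone (r = 0.60) and 18 h air replicate 1 to 18 h ozone (r = 0.70). These air arrays thus resembled the ozone group of their own harvest time. The nearest group of 18 h air replicate 5 was day 1 air (r = 0.61). The other 3 were day 2 air replicate 1 (r = -0.015 to its own group and 0.66 to day 1 air), day 2 air replicate 2 (0.30 and 0.61 to day 1 air) and day 1 air replicate 5 (0.51 and 0.61 to day 2 air). The first 4 were picked to be left out together with earlier results of these data known, and a fit without all 7 was added after the data were seen. Leaving out arrays for being unlike their own group can itself widen a difference between groups. The hepatocyte markers (6 of 7 measured, among them albumin and transthyretin) summed to 49744 to 53903 units on day 1 ozone arrays and 51923 to 54281 units on day 1 air arrays, and 0 of the 6 passed the test at any harvest time (limma adjusted p, with 1 at an unadjusted p under 0.05 each time).

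The promoters of 4 members, Junb, Egr1, Ier2 and Zfp36, stand in the RefSeq promoter table (build GRCr8). Sequences are given for these alone because the other members were not found there. A link between motifs and expression was not tested. The stretches below end at the base before the annotated start and are written 5′ to 3′ on the gene's strand. They lie at chr19:40080966-40081125 (plus strand), chr19:40399213-40399372 (plus strand) and chr1:92799109-92799268 (minus strand), and hold 160 bases each. Capitals mark motif matches, which are the cAMP response letters TGACG, then a CCAAT box and last a TATA box in Junb, TGACGTCA (the cAMP response element) in Ier2, and GCGGGGGCG (the EGR site GCGNGGGCG) and a CArG box, the core of the serum response element, in Zfp36.
Junb: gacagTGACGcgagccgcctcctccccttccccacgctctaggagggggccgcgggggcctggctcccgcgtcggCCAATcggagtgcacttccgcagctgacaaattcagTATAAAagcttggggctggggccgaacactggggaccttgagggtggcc
Ier2: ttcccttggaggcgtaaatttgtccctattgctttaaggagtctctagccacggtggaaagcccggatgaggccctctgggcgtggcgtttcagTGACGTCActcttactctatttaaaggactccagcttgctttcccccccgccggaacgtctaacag
Zfp36: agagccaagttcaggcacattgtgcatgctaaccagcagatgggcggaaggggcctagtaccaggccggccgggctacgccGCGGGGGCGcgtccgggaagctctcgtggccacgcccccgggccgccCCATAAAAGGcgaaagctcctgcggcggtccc
For Egr1, whose gene spans chr18:26737078-26740877, the matches to the CArG box are shown alone.
Egr1, CArG box 105 bases before the start: CCATATTAGG
Egr1, CArG box 83 bases before the start: CCATATATGG

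Motifs were searched on both strands of 300 bases, from 250 before to 50 after the start, in 33469 promoters. A CArG box was found in 1.64% of all promoters and in 2 of the 4 members, Egr1 and Zfp36, where it lay 32 bases before the start. TGACGTCA was found in 1.83% of promoters and in Ier2 alone of the 4, where it lay 66 bases before the start. The shorter TGACG, which TGACGTCA contains, was found in 21.2% of promoters and in Junb, Egr1 and Ier2. In Egr1 its matches lay 135 and 66 bases before the start. GCGNGGGCG stood in 4.98% of promoters and in Zfp36 of the 4, CCAAT in 37.5% and in Junb and Egr1, and TATAAA in 14.2% and in Junb. The AP-1 site TGANTCA stood in 7.33% of promoters, and these letters are not in the 4 windows. A match is a run of letters and not a measured binding site.

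At the end of exposure on day 1, Ier3 rose and Myc fell in ozone livers, and the other 5 genes did not pass the test. Ier3 is an early response gene that modulates cell survival and ERK signalling. The group mean of Ier3 was 1.54 times as high in ozone as in air, and that of Myc was 0.657 times as high (geometric means of intensity + 16). The count of 2 in 7 is close to the background, since 29.5% of all 11625 genes passed on day 1 (13.1% higher and 16.4% lower). The median difference of the 7 genes was 0.06 on the log2 scale, beside 0.00 for all genes tested. On day 2 and at 18 h, 0 of the 7 passed (limma adjusted p), where 0.705% and 1.17% of all genes did. At an unadjusted p under 0.05 there were 3 genes on day 1 (Junb, Ier3 and Myc), 1 on day 2 (Myc) and 1 at 18 h (Zfp36). The share of all genes at this unadjusted cut was not worked out. Counts at that cut, of members, related lists or markers, therefore have no background and cannot be set beside the adjusted shares. The median differences of the members were 0.08 on day 2, beside 0.00 for all genes, and 0.11 at 18 h, beside 0.01.

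Of 9 Kupffer cell markers tested on day 1, 0 rose and 2 fell, where 16.4% of all genes were called lower. They were Lyz2 (-0.63 ± 0.09) and Adgre1 (-0.27 ± 0.10), with limma adjusted p = 3.8e-06 and 0.049. The list's median was -0.14, and the differences of Cd163 and Csf1r were above 0 (0.13 and 0.045). Their summed level was 4566 to 7297 units in ozone livers and 5783 to 7058 units in air livers of day 1, 3679 to 5231 and 4285 to 7143 units on day 2, and 4100.3 to 5308 and 5448 to 6097 units at 18 h. These ranges overlapped on day 1 and day 2 and not at 18 h, where the share of all genes without overlap was not worked out. At 18 h 0 of the 9 passed (limma adjusted p), with 4 at an unadjusted p under 0.05 and a list median of -0.24. No marker is at 0, since the lowest value of the whole table is 30.5 units. Their part in the members' differences was not tested. Of the markers of neutrophils and monocytes (4 tested), lymphocytes (6) and erythroid cells (2), 0 passed at any harvest time (limma adjusted p), with 1 at an unadjusted p under 0.05, a neutrophil or monocyte marker on day 2. Those of endothelium (2 of 7), stellate cells (1 of 9) and cholangiocytes (1 of 5) fell on day 1 in the numbers given, and Kupffer cell and endothelial markers passed once each later, Lyz2 lower on day 2 (-0.40 ± 0.10) and Stab2 higher at 18 h (0.28 ± 0.07). These markers were named after their values were seen.

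**Figure D1:**
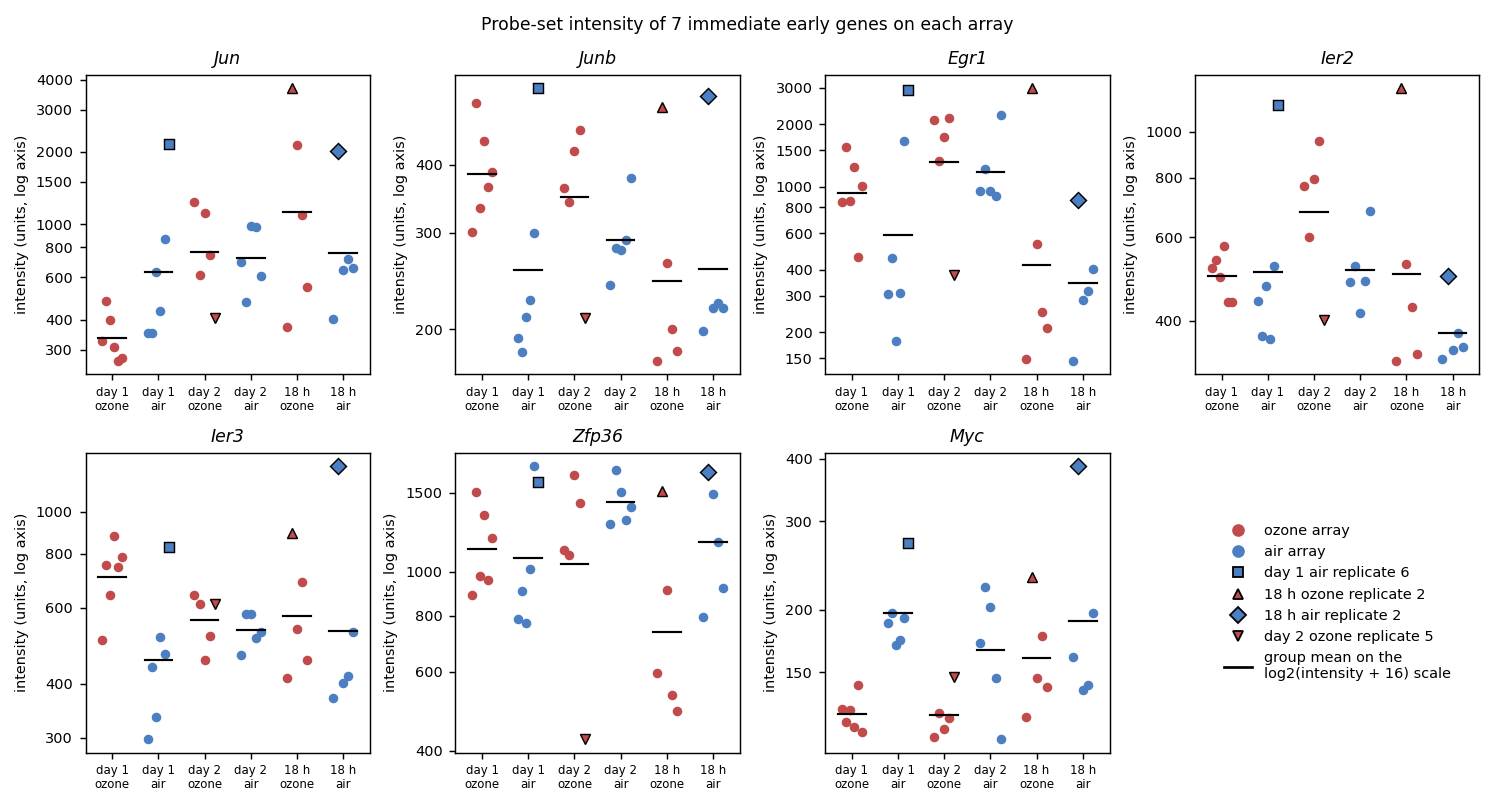
Probe-set intensity (units, log axis) of the 7 genes on each of the 32 arrays, by group, with ozone arrays in red and air arrays in blue and a bar for the group mean on the log2(intensity + 16) scale. Squares, triangles and diamonds mark 4 arrays that lie at an end of their group in most genes. On day 1 the 6 ozone arrays of Myc (113.7 to 141 units) lie below all 6 air arrays (170.3 to 271 units), and in the other 6 genes the groups overlap.

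**Figure D2:**
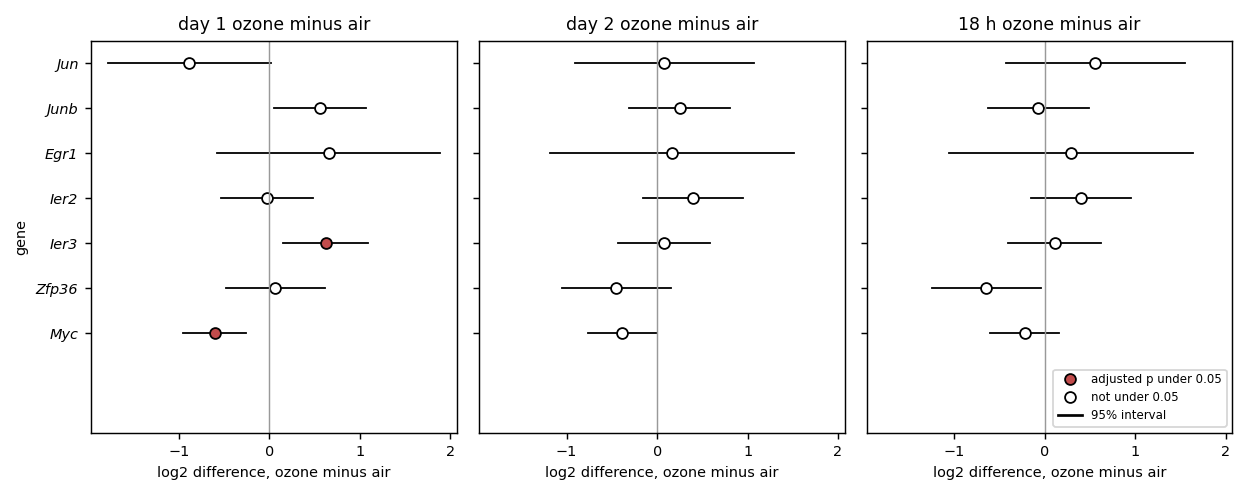
Log2 difference (ozone minus air) of each gene at the 3 harvest times, with 95% intervals from limma. Filled points mark adjusted p under 0.05, which Ier3 (0.62) and Myc (-0.61) reached on day 1 and no gene reached at the later times.

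Jun, a core AP-1 subunit, lies at chr5:115009900-115012993. On day 1 its intensity in ozone livers was 270.4 at the lowest, 317 at the median and 478 at the highest, against 351 at the lowest, 534 at the median and 2149.5 at the highest in air livers (n = 6 each). All 6 ozone arrays lay below the mean of the air arrays, and the groups overlapped because 3 air arrays lay within the range of the ozone arrays. The difference was -0.89 ± 0.44 (SE) on the log2(intensity + 16) scale, with a 95% interval of -1.79 to 0.01, and did not pass (limma adjusted p = 0.14). Without air replicate 6, the highest array, it was -0.54 (limma adjusted p = 0.38). On day 2 Jun read 1235, 615, 1116, 741 and 406 units in ozone livers and 694, 474, 987, 971 and 610.2 units in air livers. These ranges overlapped almost throughout, and the difference was 0.08 ± 0.48, or 0.24 without the 4 arrays that lay away from their groups and -0.13 without all 7. The 18 h readings were 372, 3683, 2131, 1096 and 547 units in ozone livers and 404, 2021, 645, 715 and 657 units in air livers. Here the ozone group held both the lowest and the highest array, and the difference was 0.56 ± 0.48 (limma adjusted p = 0.73). It ranged from 0.13 without ozone replicate 2 to 0.95 without ozone replicate 1, was 0.20 without the 4 arrays, and passed in none of these fits (limma adjusted p 0.44 to 0.96). The other probe sets of Jun gave -0.27 ± 0.33 and -0.49 ± 0.38 on day 1 (limma adjusted p = 0.59 and 0.37, SE), smaller in size than that of the brightest, and all 3 had the same sign at each harvest time.

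Junb, an AP-1 subunit that can oppose Jun at some promoters, lies at chr19:40081126-40082910. On day 1 its intensity was 301 at the lowest, 375 at the median and 518 at the highest in ozone livers, against 182 at the lowest, 218 at the median and 552 at the highest in air livers. All 6 ozone arrays lay above the mean of the air arrays, and 5 of the 6 air arrays lay below every ozone array, with air replicate 6 above them all. The difference was 0.56 ± 0.25 (SE), with a 95% interval of 0.05 to 1.07, and it did not pass over all genes (limma adjusted p = 0.093). Without air replicate 6 it was 0.77 (limma adjusted p = 0.013). It did not pass in the other 11 of 12 fits with 1 array left out, where it was as small as 0.47 (limma adjusted p up to 0.20). On day 2 Junb read 362, 342, 424, 464 and 210.1 units in ozone livers and 241, 282, 279.6, 292 and 378 units in air livers. Ozone replicate 5 was the lowest of the 10 arrays, and the difference of 0.25 ± 0.27 became 0.51 without the 4 arrays that lay away from their groups, passing in neither case (limma adjusted p = 0.85 and 0.32). At 18 h it read 175, 509, 264, 200.5 and 183 units in ozone livers and 198, 534, 219, 223 and 218 units in air livers. In both groups replicate 2 stood far above the rest, and the difference was -0.07 ± 0.27, or -0.27 without the 4 arrays.

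Egr1 had the widest spread. On day 1 it read 849, 1561, 854, 1247, 461 and 1011 units in ozone livers and 307, 455, 181, 308, 1657 and 2913 units in air livers. Air replicates 1 to 4 lay below the lowest ozone array, and the other 2 lay above every ozone array. The difference was 0.66 ± 0.60 (SE), with a 95% interval of -0.57 to 1.89 (limma adjusted p = 0.45). It was 0.34 without air replicate 3 and 1.11 without air replicate 6 (limma adjusted p = 0.72 and 0.17). On day 2 Egr1 read 2099.7, 1334, 1734, 2158 and 375 units in ozone livers and 952, 1220.0, 957, 902 and 2221 units in air livers. Ozone replicate 5 lay below every air array, and air replicate 5 lay above every ozone array. The difference was 0.17 ± 0.66, and it was 0.84 ± 0.70 without the 4 arrays that lay away from their groups, which include both of these (limma adjusted p = 0.99 and 0.57). At 18 h Egr1 read 149, 2989.8, 530.0, 249.5 and 210.3 units in ozone livers and 146, 868, 287, 315 and 405 units in air livers. The difference was 0.29 ± 0.66 with all arrays, -0.41 without ozone replicate 2 and -0.02 without the 4 arrays, and it passed in none of these fits (limma adjusted p = 0.93, 0.82 and 1.0).

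Ier2, an early response gene that encodes a nuclear protein, lies at chr19:40399373-40400897. On day 1 it read 438 at the lowest, 504 at the median and 575 at the highest in ozone livers, against 366 at the lowest, 456 at the median and 1138 at the highest in air livers. The ozone arrays fell in a narrow band inside the range of the air arrays, and the difference was -0.03 ± 0.25 (SE). Without air replicate 6, the highest array, it was 0.20 (limma adjusted p = 0.56). On day 2 Ier2 read 767, 599.6, 796, 955 and 401 units in ozone livers and 482, 522, 415, 486 and 681 units in air livers. Of the 5 ozone arrays 4 lay above the air mean and replicate 5 lay below every air array. The difference was 0.39 ± 0.27, and 0.68 ± 0.29 without the 4 arrays that lay away from their groups (limma adjusted p = 0.63 and 0.14). Its 18 h readings were 329.5, 1235, 526, 427 and 341 units in ozone livers and 333, 497, 346, 376 and 351 units in air livers. The difference of 0.40 ± 0.27 (limma adjusted p = 0.62) was 0.08 without ozone replicate 2.

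Ier3, which rose on day 1, lies at chr20:2933173-2934377. It read 504, 753, 642, 879.9, 744 and 783 units in ozone livers and 298, 436, 335, 513, 469 and 828 units in air livers. All 6 ozone arrays lay above the mean of the air arrays, yet the groups overlapped, because ozone replicate 1 was below air replicate 4 and air replicate 6 was above all but ozone replicate 4. The group means were 9.50 ± 0.27 in ozone livers and 8.88 ± 0.50 in air livers (log2(intensity + 16), SD, n = 6 each). The difference was 0.62 ± 0.23 (SE) with a limma adjusted p of 0.039. The call is near the threshold, and leaving out any 1 of 8 of the 12 arrays ended it (limma adjusted p 0.051 to 0.10). Those arrays were air replicates 1, 2, 3 and 5 and ozone replicates 2, 4, 5 and 6. It was also lost without day 1 air replicate 2 and day 1 ozone replicate 3, which had the lowest nonspecific-binding signal (difference 0.64, limma adjusted p = 0.072), and without the 7 arrays nearer to another group (0.63, limma adjusted p = 0.066). On day 2 Ier3 read 640.3, 609.9, 453, 516 and 612 units in ozone livers and 467, 580.1, 581, 509 and 527 units in air livers. The groups overlapped and the difference was 0.08 ± 0.25, with a 95% interval of -0.43 to 0.59, or 0.047 without the 4 arrays. At 18 h it read 412, 894, 534, 688 and 455 units in ozone livers and 369.7, 1272, 402, 417 and 528 units in air livers. Replicate 2 was again the highest array of each group, and the difference was 0.11 ± 0.25, or -0.06 without the 4 arrays that lay away from their groups.

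Zfp36 lies at chr1:92796628-92799108. On day 1 it read 888 at the lowest, 1084 at the median and 1509 at the highest in ozone livers, against 771 at the lowest, 960.5 at the median and 1717 at the highest in air livers. The ozone range lay inside the air range, and the difference was 0.06 ± 0.27 (SE). On day 2 Zfp36 read 1118, 1091, 1643, 1421 and 425 units in ozone livers and 1279.5, 1689, 1509, 1304 and 1397 units in air livers. The air arrays were close together, and 4 of the 5 ozone arrays lay below their mean, with replicate 5 farthest below. The difference was -0.45 ± 0.29, and -0.14 without the 4 arrays that lay away from their groups (limma adjusted p = 0.6 and 0.86). At 18 h it read 596, 1510.3, 913, 532 and 491 units in ozone livers and 796, 1673, 1492, 1168 and 921 units in air livers. Again 4 of the 5 ozone arrays lay below the air mean, and ozone replicate 2 lay among the highest air arrays. The difference at 18 h was -0.65 ± 0.29, with a 95% interval of -1.25 to -0.05, and did not pass over all genes (limma adjusted p = 0.35). Without the 4 arrays that lay away from their groups, 2 of which are 18 h air arrays, it was -0.94 ± 0.28 (limma adjusted p = 0.049). Those 2 were air replicates 1 and 5, which had the lowest Zfp36 readings of that group (796 and 921 units). Leaving arrays out for being unlike their group can itself widen the difference. Without all 7, which takes out the same 18 h arrays and is no separate check, it was -0.94 ± 0.27 (0.044). With 1 array left out it ranged from -0.90 to -0.51 and passed in 0 of 10 fits (limma adjusted p 0.12 to 0.66).

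Myc, which fell on day 1, lies at chr7:95483105-95488031 and was the dimmest member, at the 23.2 percentile of the tested genes' mean level. On day 1 it read 127, 119, 126, 116, 141 and 114 units in ozone livers and 188, 197, 170.3, 174, 193 and 271 units in air livers. Every ozone array lay below every air array, which held for 8.76% of all genes on day 1 and for no other member. The group means were 7.13 ± 0.10 in ozone livers and 7.73 ± 0.23 in air livers (log2(intensity + 16), SD, n = 6 each). The difference was -0.61 ± 0.17 (SE), with a limma adjusted p of 0.0069. It kept its call when any of the 12 arrays was left out (limma adjusted p 0.0077 to 0.026) and without the pair of day 1 arrays with the lowest nonspecific-binding signal (0.02). On day 2 Myc read 112, 124, 115, 122 and 147 units in ozone livers and 172, 222, 202, 146 and 110.4 units in air livers. All 5 ozone arrays lay below the air mean, and air replicate 5 lay below every ozone array. The difference was -0.38 ± 0.19, with a 95% interval of -0.77 to -0.0024 (limma adjusted p = 0.38), and -0.57 ± 0.20 without the 4 arrays that lay away from their groups (limma adjusted p = 0.06). The readings at 18 h were 122, 233, 146, 178 and 140.3 units in ozone livers and 161, 386, 139, 141 and 197 units in air livers. The groups overlapped, air replicate 2 was the highest of the 10 arrays, and the difference was -0.23 ± 0.19, or 0.02 without that array.

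Whether the ozone effect differed between harvest times was tested with the difference of the differences. From day 1 to day 2, 0 of the 7 genes passed, where 5.09% of all genes did. The lowest limma adjusted p was 0.41, for Ier3, whose effect changed by -0.54 ± 0.34 (SE). The effect on Myc changed by 0.22 ± 0.25 between these times (limma adjusted p = 0.69), so that its call on day 1 and the lack of a call on day 2 were not shown to differ. From day 2 to 18 h, 0 of the 7 passed, where 0.0086% of all genes did (lowest limma adjusted p = 0.91). At an unadjusted p under 0.05 there were 0 members in either test. These contrasts share the day 2 arrays with each other and with the day 2 comparison.

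Across harvest times within an exposure, 0 of the 7 genes passed in any of the 4 consecutive comparisons. The background was 14.5% of all genes from day 1 to day 2 and 11.3% from day 2 to 18 h in ozone livers, and 0.0086% and 0.12% in air livers. The counts of members at an unadjusted p under 0.05 were 1, 1, 0 and 1 in that order. In ozone livers Jun differed by 1.15 ± 0.46 between day 2 and day 1 (SE, limma adjusted p = 0.097). In ozone livers Egr1 differed by -1.61 ± 0.66 between 18 h and day 2 (limma adjusted p = 0.12). In air livers it differed by -1.73 ± 0.66 between the same times (limma adjusted p = 0.36), and every air array at 18 h lay below every air array of day 2, as in 0.49% of all genes. Without the 4 arrays that lay away from their groups it was -1.19 (limma adjusted p = 0.62). The Egr1 difference in ozone livers was -2.05 without day 2 ozone replicate 5 and -2.30 without 18 h ozone replicate 2 (limma adjusted p = 0.032 and 0.015). It did not pass in the other 8 of 10 fits with 1 array left out, where it was as small as -1.25 (limma adjusted p up to 0.30). With 1 array left out the air difference ranged from -2.05 to -1.44 and did not pass (limma adjusted p 0.27 to 0.70).

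When the 6 groups were ordered by their mean, Jun was highest in ozone livers at 18 h, Egr1 and Ier2 in ozone livers of day 2, Junb and Ier3 in ozone livers of day 1, Zfp36 in air livers of day 2 and Myc in air livers of day 1. Of the 35 pairs of neighbours in these orders, 2 differed by more than the larger SD of the pair. They were day 1 ozone over 18 h air in Ier2, with a gap of 0.39, and 18 h ozone over day 1 ozone in Myc, with a gap of 0.33.

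The spread within groups was large for every member. The within-group SD was 1.13 on the log2 scale for Egr1, and 0 of the 11625 genes had a larger one. It was 0.83 for Jun (3 genes larger), 0.50 for Zfp36 (30), 0.47 for Junb (41), 0.46 for Ier2 (42), 0.43 for Ier3 (60) and 0.32 for Myc (142). The median SD over all genes was 0.079 and the 99th percentile was 0.34. Some arrays lay at an end of their group in most of the genes together. Day 1 air replicate 6 was the highest of its group in 6 of the 7 genes, and replicate 2 was the highest in 7 of 7 both in 18 h ozone and in 18 h air. At the low end, replicate 1 was the lowest in 6 of 7 genes in both 18 h groups, and day 2 ozone replicate 5 was the lowest of its group in 5 of 7.

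**Figure D3:**
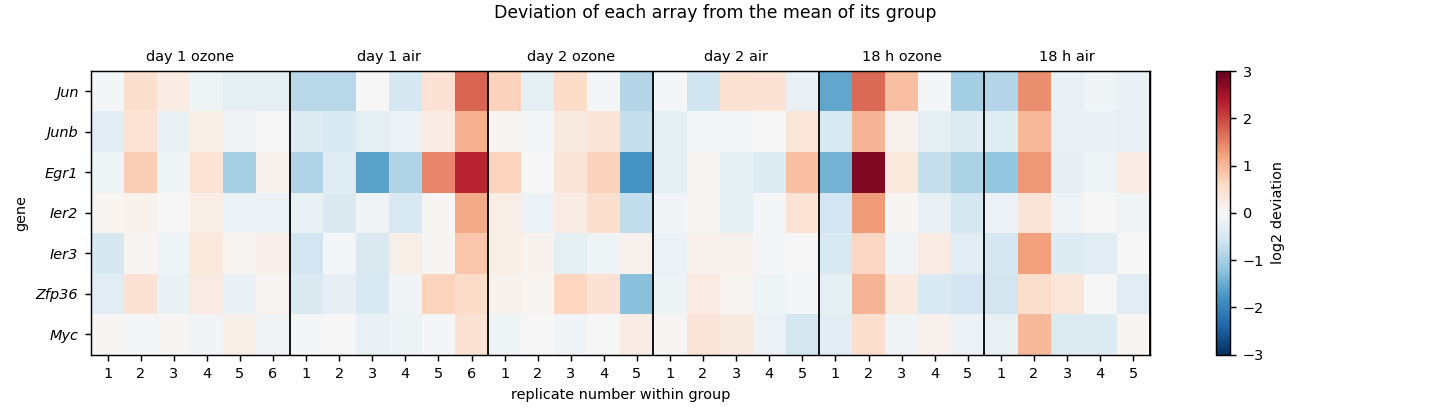
Deviation of each array from the mean of its own group (log2(intensity + 16) scale, colour) for the 7 genes, arrays in columns by group and replicate number. Columns of one colour are arrays on which the genes lay high or low together, such as 18 h ozone replicate 2 and 18 h air replicate 2, where all 7 genes are at their group's highest level.

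Markers of other liver cells and RNA quality were read on these high arrays. The summed level of 9 Kupffer cell markers was 4762 units on 18 h ozone replicate 2 (group range 4100.3 to 5308), 6097 on 18 h air replicate 2 (group range 5448 to 6097) and 6922 on day 1 air replicate 6 (group range 5783 to 7058). The sum of 4 neutrophil and monocyte markers was 1902, 2133 and 1671 units on these arrays, which is the highest of its group on 18 h air replicate 2. Beta-actin 3′ signal over 5′ signal, which reflects RNA integrity, was 2.76, 2.65 and 2.61 on them, within the range of 2.16 to 3.50 over all arrays. Their part in the spread was not tested.

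The members' deviations from their group means were correlated over the 32 arrays in 21 pairs. Junb and Egr1 had the highest Pearson's r, 0.89, with Spearman's rho = 0.88 (within-group permutation test of 100000 draws, adjusted p = 3.5e-05 and 4.2e-05), where the raw p of 1e-05 is the smallest the test can give. Without the 2 arrays farthest from the median of 1 gene of the pair, r was 0.82. That gene was the first of the pair in the order Jun, Junb, Egr1, Ier2, Ier3, Zfp36, Myc, so the arrays left out differ between pairs. Leaving out the ends of a gene's range can itself lower r. Junb and Zfp36 had the highest rho of the 21 pairs (0.883, beside 0.876 for Junb and Egr1) and r = 0.83. Junb and Ier2 had r = 0.89 and rho = 0.83, Egr1 and Ier2 had r = 0.88 and rho = 0.86, and Egr1 and Zfp36 had r = 0.85 and rho = 0.85. Each of these pairs had the same adjusted permutation p as Junb and Egr1, and r was 0.79 to 0.82 without 2 arrays. Jun went with Junb at r = 0.83 and rho = 0.71 (permutation adjusted p = 3.5e-05 and 0.00034, r = 0.74 without 2 arrays). Jun with Ier2 and Jun with Egr1 had r = 0.80 each, and Ier2 with Zfp36 had r = 0.75.

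Ier3 was about as close to Junb as to Myc. The deviations of Ier3 and Myc had r = 0.76 and rho = 0.56 (permutation adjusted p = 0.00052 and 0.005), and r = 0.56 without 2 arrays. Those of Junb and Ier3 had r = 0.74 and rho = 0.55 (permutation adjusted p = 0.0016 and 0.007), and r = 0.63 without 2 arrays. With Jun, Egr1, Ier2 and Zfp36, Ier3 had r = 0.65, 0.63, 0.52 and 0.46. Myc and Egr1 had r = 0.40 and rho = 0.25 (permutation adjusted p = 0.028 and 0.23), and r = 0.19 without the 2 arrays farthest from the median of Egr1. Ier2 and Myc had r = 0.37 and rho = 0.15, and r = 0.10 without the 2 arrays farthest from the median of Ier2. Zfp36 and Myc had r = 0.26 and rho = 0.18 (permutation adjusted p = 0.15 and 0.37). In all, 20 of the 21 pairs passed by Pearson's r and 14 by Spearman's rho. The share among pairs of other genes was not worked out, so these counts are not shown to be particular to the members. No scan date or batch was used, so within-batch values cannot be given.

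**Figure D4:**
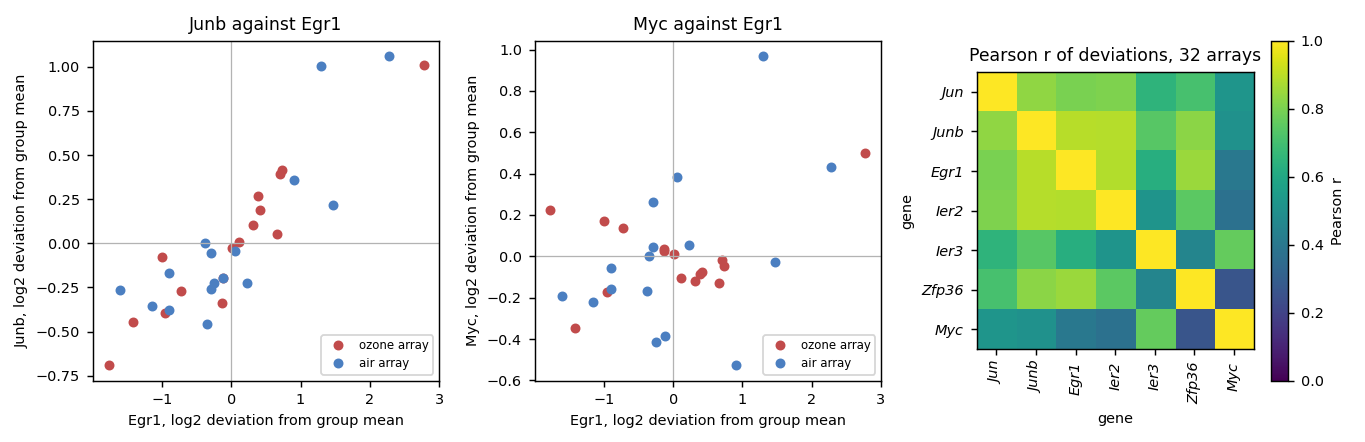
Log2 deviations of Junb against Egr1 (left) and of Myc against Egr1 (middle) on the 32 arrays, ozone arrays in red and air arrays in blue, and Pearson's r of all 21 pairs as colour (right). Junb follows Egr1 along the whole range (r = 0.89), while Myc follows Egr1 less closely (r = 0.40, and 0.19 without 2 arrays).

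The genes outside the set whose log2 level over the 32 arrays was most like that of a member are given as a description, with groups and arrays in common and no test. Jun was most like Atf3, a stress-induced AP-1 relative (r = 0.82), then Klf6 (0.79) and Ppp1r15a (0.76). Junb was most like Klf10 (0.79), Csrnp1 (0.77) and Igfbp1 (0.75), and Egr1 like Csrnp1 (0.71), Klf10 (0.67) and Nr4a1 (0.65). Ier2 was most like Nr4a1, an orphan nuclear receptor of the early response (0.75), then Spry2 (0.70) and Csrnp1 (0.66). Zfp36 was most like Dusp1, a phosphatase that switches off MAP kinases (0.79), then Pim3 (0.73) and Cebpb (0.73). Ier3 was most like Ntf3 (0.79), the neutrophil chemokine Cxcl1 (0.78) and the growth arrest gene Gadd45a (0.77). Myc was most like Gadd45g (0.80), Acvr1 (0.79) and Prps2 (0.77).

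Related genes were read from 8 lists of the AP-1, EGR, ERK, ZFP36 and MYC pathways, with 95 genes tested. On day 1, 22 rose and 10 fell (limma adjusted p), which is 33.7% beside 29.5% of all genes. Of all genes 13.1% rose and 16.4% fell, which is the background for the day 1 counts of each list below. On day 2, 0 of the 95 passed, with 13 at an unadjusted p under 0.05, a cut at which the share of all genes was not worked out. At 18 h 1 rose and 2 fell, 3.16% beside 1.17% of all genes.

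Among the transcription factors, 1 of 8 AP-1 relatives passed on day 1, Mafk, a small Maf protein, which rose by 0.18 ± 0.04 on the log2 scale (SE). The list's median was -0.02. Of 10 EGR, NR4A and KLF factors, 2 rose and 1 fell, with a median of -0.02. Klf10, a TGF-beta-inducible factor, rose by 0.62 ± 0.20 and Klf9, a glucocorticoid target, rose by 0.36 ± 0.11 (limma adjusted p = 0.018 and 0.01), while Nr4a2 fell with a difference of -0.16 ± 0.04. Both KLF calls were lost without the pair of day 1 arrays with the lowest nonspecific-binding signal (limma adjusted p = 0.12 and 0.086). At 18 h Klf9 was lower in ozone livers, with a difference of -0.51 ± 0.12 (limma adjusted p = 0.025). Leaving out single arrays ended that call for 6 of 10 arrays (limma adjusted p up to 0.10) and the day 1 call of Klf10 for 1 of 12 (0.061).

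On day 1 the 28 other primary response genes included 5 that rose and 0 that fell, where 13.1% of all genes rose and 16.4% fell. Their median was 0.01. Gadd45b, a stress sensor of the GADD45 family, rose by 1.26 ± 0.32 (limma adjusted p = 0.0026) and Gadd45a by 0.72 ± 0.24 (0.024). Btg1, an antiproliferative gene, rose by 0.49 ± 0.09 (5.6e-05), and Socs3, the feedback inhibitor of cytokine signalling through STAT3, rose by 0.32 ± 0.08 (0.0023). At 18 h Id2, an inhibitor of helix-loop-helix factors, rose by 0.73 ± 0.16 (0.023). Among 9 ERK feedback inhibitors, Errfi1, which restrains the EGF receptor, fell on day 1, with a difference of -0.29 ± 0.09 (0.0087), and at 18 h, with -0.36 ± 0.09 (0.047), and the other 8 did not pass. With single arrays left out, the call of Gadd45a ended for 5 of 12 arrays (limma adjusted p up to 0.065), that of Id2 for 5 of 10 (0.087) and that of Errfi1 at 18 h for 8 of 10 (0.15). The medians of that list were -0.04 and 0.05.

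Of 14 upstream genes of ERK, SRF and JNK signalling, 4 rose and 3 fell on day 1, where 13.1% of all genes rose and 16.4% fell. The list's median was 0.02. Beside Srf, the genes that rose were Mapk14 (0.32 ± 0.10), Elk4 (0.25 ± 0.08) and Rps6ka3 (0.09 ± 0.03), with limma adjusted p = 0.014, 0.022 and 0.043. Mapk14, Elk4 and Rps6ka3 were not refitted with arrays left out. Srf itself, the factor that binds CArG boxes, rose by 0.18 ± 0.04 (limma adjusted p = 0.0024), while the cAMP-responsive factor Creb1 (-0.27 ± 0.06), the ERK kinase Map2k1 (-0.13 ± 0.04) and the ternary complex factor Elk3 (-0.21 ± 0.06) fell (limma adjusted p = 0.0012, 0.0062 and 0.0098).

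The ZFP36 family and transcripts with AU-rich elements held the largest single change of the 8 lists. Of 7 genes tested, Cxcl1 rose by 3.00 ± 0.53 on day 1 (limma adjusted p = 5.5e-05). Elavl1, which encodes the AU-binding stabiliser HuR, fell with a difference of -0.72 ± 0.13 (4.8e-05), and Zfp36l1, a paralog of Zfp36, fell with -0.31 ± 0.11 (0.03), a call that ended without any 1 of 6 of the 12 arrays (limma adjusted p up to 0.10). The list's median was 0.03.

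In the MYC network, where MYC pairs with MAX and its antagonists with MAX or in part with MLX, 2 of 6 rose and 2 fell on day 1. Of all genes 13.1% rose and 16.4% fell. Mlx rose by 0.62 ± 0.09 (limma adjusted p = 7.1e-06). Of the MYC antagonists, Mnt rose by 0.17 ± 0.06 (0.035), while Mxi1 and Mxd4 fell, with differences of -0.46 ± 0.07 and -0.30 ± 0.04 (4.0e-06 and 2.5e-06). The call of Mnt ended without any 1 of 5 of the 12 arrays (limma adjusted p up to 0.11). Of 13 genes known as MYC targets, 7 rose and 1 fell, where 13.1% of all genes rose and 16.4% fell. Their median was 0.19 beside 0.00 for all genes, on the day on which Myc itself fell. A link between these changes was not tested. Odc1, the first enzyme of polyamine synthesis, rose by 0.52 ± 0.06 (4.7e-07), Ldha by 0.41 ± 0.08 (0.00033) and the nucleolar gene Nolc1 by 0.28 ± 0.04 (8.4e-07), while cyclin D2 (Ccnd2) fell with a difference of -0.38 ± 0.05 (2.8e-06). The lists were chosen with results of these data known, and their direction is not independent evidence.

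**Figure D5:**
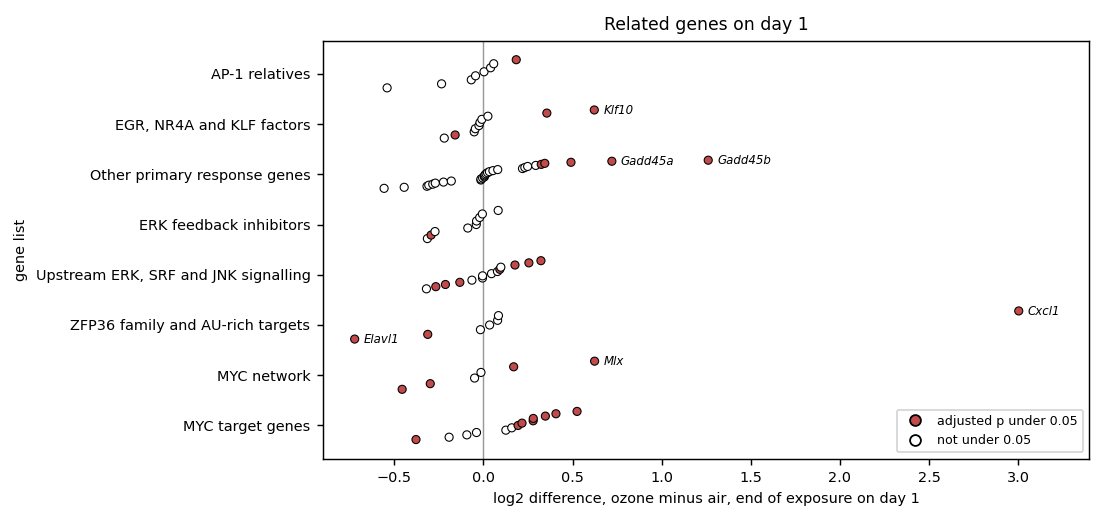
Log2 difference (ozone minus air) on day 1 for each tested gene of the 8 related lists, 1 point a gene, with filled points where the limma adjusted p was under 0.05. Most points lie near 0, with Cxcl1 (3.00) and Gadd45b (1.26) far to the right and Elavl1 (-0.72) to the left.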

How the data were processed

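Liver RNA of the 32 samples was measured on 1 array each. The authors deposited linear intensities per probe set, from 30.5 to 15558. Per the submitters' processing notes, PLIER and Affymetrix Expression Console were used. How background was corrected and arrays scaled, and in which versions, is not given in the sources used here. No further scaling was applied. Of 31139 probe sets, 97 controls, 11407 without a gene and 573 with several genes were left out, which left 19062. Probe sets with a mean below the 25th percentile of the non-control probe sets were not tested, and the brightest probe set stood for its gene.

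Values were analysed as log2(intensity + 16), the offset foreseen for linear values, with limma 3.58.1 in R 4.3.3 (lmFit, eBayes with an intensity trend). The model had a mean for each of the 6 groups, taken from the sample titles, and no block. Two-sided p-values were adjusted after Benjamini and Hochberg over 11625 genes, with a threshold of 0.05. The procedure was tested on simulated data. Alternatives changed the offset, the filter, the normalization, the probe set rule, the block, the arrays in the fit and the intensity trend, or left arrays out.

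The model did not use replicate numbers as pairs, and the labels do not say whether they are. Same-numbered ozone and air arrays correlated from -0.58 to 0.26 in their deviations across genes, over 0.1 in 2 of 16 pairs. A correlation over all genes cannot exclude a pairing. In both 18 h groups replicate 2 was highest in 7 of 7 members and replicate 1 lowest in 6 of 7. Deviations were correlated with Python 3.11.15, numpy 2.4.6 and scipy 1.17.1, with permutation inside groups. From each related list, up to 4 members past the threshold with the smallest p in a contrast are named, and for each member the 3 most like genes. In the upstream list the other genes that rose on day 1 are named as well. Members, lists, tests and the arrays left out together were chosen with earlier results of these data known. Gene positions, and the promoters of 4 of the 8 members, are RefSeq's (GRCr8). The number of arrays limits the precision.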

Additional observations from a re-analysis of the deposited data

Results flagged for a closer look

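Within groups, 5 of 42 sets of arrays (7 genes in 6 groups) had an array whose gap to the nearest other array, as a share of the group's range, was above Dixon's 95% critical value, and chance gives about 1 in 20. Junb on 18 h air replicate 2 (534 units, share 0.883) and Ier3 on the same array (1272 units, 0.715) stood above their groups. On day 1 air replicate 6, Ier2 (1138 units, 0.693) and Myc (271 units, 0.693) did. Egr1 on day 2 ozone replicate 5 (375 units, 0.722) stood below its group.

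Of the 25 related genes named in the text by the smallest p, 6 had an ozone effect that differed between day 2 and day 1 by a direct test. Of all genes 5.09% did (limma, log2 difference of differences ± SE). The 25 were named for the smallest p in an ozone comparison, mostly that of day 1, so the choice of genes is not independent of this test. Cxcl1 differed by -2.86 ± 0.78 (adjusted p = 0.028), with an effect of 0.15 ± 0.58 on day 2 and 3.00 ± 0.53 on day 1. Mxi1 differed by 0.44 ± 0.10 (0.0082), with -0.02 ± 0.07 and -0.46 ± 0.07. Elavl1 differed by 0.64 ± 0.19 (0.039), with -0.08 ± 0.14 and -0.72 ± 0.13. Odc1 differed by -0.32 ± 0.10 (0.044), Srf by -0.22 ± 0.07 (0.04) and Nolc1 by -0.21 ± 0.05 (0.02).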

How the results depend on the processing

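The counts of members past the threshold on day 2, in both differences of ozone effects and in both air comparisons were 0 under every alternative. On day 1 the count of 2 became 1 with a 50th percentile filter, which leaves Myc untested, and 1 without the 2 arrays of low nonspecific signal (Myc alone), and lay between 1 and 3 with 1 array left out. Without the 7 arrays nearer to another group, an alternative chosen after seeing the data, it was 1 (Myc). At 18 h it became 1 (Zfp36) without the 4 arrays away from their groups, and 1 without the 7, where the same 18 h arrays are left out. From day 1 to day 2 in ozone livers it became 1 (Jun) with a replicate block (difference 1.09, adjusted p = 0.019) and 1 with only the groups compared in the fit (1.15, adjusted p = 0.0084), and was 0 with any array left out. From day 2 to 18 h in ozone livers it became 2 (Egr1 and Zfp36) without the 4 arrays or the 7, and was 0 to 2 with 1 array left out. With 2 it held Egr1 and Zfp36 without day 2 ozone replicate 5, and Egr1 and Ier2 without 18 h ozone replicate 2. The replicate block brought Junb past the threshold on day 1 (adjusted p = 0.043). It ended the calls of Mnt on day 1 (0.062) and of Klf9 and Id2 at 18 h (0.064 and 0.089). With the block the SE of Ier3 on day 1 was 0.14, beside 0.23 without it. Whether the replicate numbers pair the samples is not stated in the labels.

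Directions turned only in differences that did not pass. Without the 4 arrays, and without all 7, Egr1 at 18 h was -0.023 and Ier3 at 18 h was -0.063, and Jun on day 2 was -0.13 without the 7. With 1 array left out, Ier2 on day 1 ranged from -0.12 to 0.20, Zfp36 on day 1 from -0.030 to 0.20, Jun on day 2 from -0.090 to 0.30, Egr1 on day 2 from -0.010 to 0.61, and at 18 h Junb from -0.32 to 0.18, Egr1 from -0.41 to 0.64, Ier3 from -0.049 to 0.42 and Myc from -0.35 to 0.017. Over 51 gene results and 1181 settings, 1088 kept direction and side of the threshold, 59 lost the call, 10 gained it and 24 turned. Beside Ier3, the genes that lost a call in some setting were Gadd45a, Klf9, Klf10, Mnt and Zfp36l1 on day 1 and Errfi1, Id2 and Klf9 at 18 h. At 18 h, Errfi1 lost it without 8 of the 10 arrays in turn, Klf9 without 6 and Id2 without 5. The cause of these changes was not tested. Background signal in the values limits what can be said of Myc, the dimmest member.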

Other observations

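The spread between arrays was also set side by side for ozone and air at each harvest time, as a description. On day 1 the SD within the group was smaller in ozone than in air for 7 of the 7 immediate early genes, beside 50.4% of all genes tested. It was smaller in ozone for 1 of the 7 on day 2, beside 65.5% of all genes, and for 2 of the 7 at 18 h, beside 52.1%. On day 1 the highest array read 3.39 times the lowest for Egr1 in ozone livers and 16.1 times in air livers, and for Jun 1.77 times in ozone livers and 6.12 times in air livers. At 18 h Egr1 spanned 20.1 times in ozone livers and 5.95 times in air livers. No test of these spreads was run, and the genes share the arrays that lay highest or lowest, such as day 1 air replicate 6 and day 2 ozone replicate 5.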
